A study of Mus musculus with 9 samples.

Results

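The genes of the proteasome were read on 9 Affymetrix whole-genome mouse arrays of D3-pOct4 mouse embryonic stem cells. A gene was taken where a probe set carried exactly 1 platform symbol beginning with Psma, Psmb, Psmc, Psmd or Psme followed by a number, and the probe set with the highest mean signal over the 9 arrays stood for the gene. This gave 44 genes with 91 probe sets, of 18194 genes on the array that have a probe set named for 1 gene. Of the 44, 42 encode proteasome subunits, 19S assembly chaperones or activators, and 2 (Psmc3ip and Psme3ip1) are named for a proteasome gene without being subunits. The 42 comprise 7 genes of the 20S alpha ring, 7 of the constitutive 20S beta ring, 9 of the 19S base, 8 of the 19S lid, 3 chaperones of 19S assembly, 2 further activators, 4 immunoproteasome genes and 2 tissue-restricted 20S genes. All but Psmb11 passed the filter on low signals, so 41 were tested.

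All cells carried the same D3-pOct4 background and were kept for 7 days in 1 of 3 media. The medium of the LIF group held leukemia inhibitory factor (LIF) at 1000 U/ml, a cytokine that keeps mouse embryonic stem cells undifferentiated. The no LIF group received neither LIF nor a donor. The NO donor group also lacked LIF but received DETA/NO, a slow-release source of nitric oxide, at 2 µM. There are 3 arrays a group, labelled as replicates 1, 2 and 3 from passages 31, 33 and 34 of 1 cell line. The labels do not say how far these cultures were separate, so p-values measure only the spread between these arrays. In RNA from whole cultures, fewer cells of a type and less RNA per cell cannot be told apart.

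The proteasome degrades proteins that carry ubiquitin chains. Its 20S core is a barrel of alpha rings around beta rings, and the beta subunits Psmb5, Psmb6 and Psmb7 carry the peptidase sites. The 19S cap binds and unfolds substrates: the ATPases Psmc1 to Psmc6 sit with Psmd1, Psmd2 and Psmd4 in its base, and the lid holds the deubiquitinase Psmd14. In the immunoproteasome, which interferon induces and immune cells make constitutively, Psmb8, Psmb9 and Psmb10 take the places of Psmb5, Psmb6 and Psmb7, and Psme1 and Psme2 form the activator PA28. Embryonic stem cells are known for high proteasome activity, and constitutive subunit genes are known to be transcribed in concert under Nfe2l1.

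The pluripotency genes Pou5f1, Nanog and Sox2 lay above the array median on every array. This does not tell what share of the cells stayed undifferentiated. Over the 9 arrays the signal of Pou5f1 ran from 958 to 3210, that of Nanog from 271 to 1340 and that of Sox2 from 1510 to 3870. The arrays differ in ways that the groups do not explain. Socs3, a target of LIF signalling, read 3210, 282 and 1790 with LIF and 102, 3050 and 330 without it, so the arrays labelled LIF replicate 2 and no LIF replicate 2 go against their labels for this gene. The median signal was 20.8 to 23.3 on LIF replicate 1 and NO donor replicates 1 and 2, called the brighter arrays here, and 13.9 to 17.8 on the other 6. No LIF replicate 1 and NO donor replicate 3 were the closest pair, with r = 0.977. Signals are linear, in arbitrary units, and depend on the probe set, so no gene's signal is set against another's. The number of arrays limits the precision.

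Of the 41 tested genes, 34 have a window in the RefSeq promoter table of GRCm38.p6, which runs from 250 bases before to 50 after a gene start. Psma8, Psmb1, Psmb2, Psmb7, Psmc3, Psmd3 and Psmd7 have none there. The windows were searched on both strands for the antioxidant response element core that Nfe2l1 and Nfe2l2 are known to bind (TGACNNNGC), an interferon-stimulated response element (GAAA, any 2 bases, GAAA) and a STAT site (TTCNNNGAA). The first was in 6 of the 36 windows of these genes (16.7%, against 12.4% of 32851 windows of all genes), those of Psmb5, Psmb6, Psmc6, Psmd12, Psmd9 and Psme4. The interferon element was in 4 (11.1%, against 3.44%), those of Psmb3, Psmd4, Psmd9 and Psme1. The STAT letters were in 2 (5.56%, against 8.3%), those of Psmb8 and Psmd2. A match is a description and not a shown site. The 4 windows below set a peptidase subunit and an activator of constitutive proteasomes beside 2 immunoproteasome genes, all on the plus strand, 5′ to 3′, with the matched letters in capitals. They lie at chr11:70525107-70525406 (Psmb6), chr11:30771525-30771824 (Psme4), chr17:34197945-34198244 (Psmb8) and chr14:55578244-55578543 (Psme1). In Psmb6 and Psme4 the capitals are the antioxidant element, at position -9 and -7 from the gene start, in Psmb8 the STAT letters at position -97, and in Psme1 the interferon element at position 9 after the start.
Psmb6: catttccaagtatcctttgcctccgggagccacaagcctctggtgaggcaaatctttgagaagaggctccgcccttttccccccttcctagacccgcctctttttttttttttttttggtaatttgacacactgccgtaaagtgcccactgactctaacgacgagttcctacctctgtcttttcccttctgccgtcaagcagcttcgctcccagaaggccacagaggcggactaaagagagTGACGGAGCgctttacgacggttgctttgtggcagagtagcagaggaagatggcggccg
Psme4: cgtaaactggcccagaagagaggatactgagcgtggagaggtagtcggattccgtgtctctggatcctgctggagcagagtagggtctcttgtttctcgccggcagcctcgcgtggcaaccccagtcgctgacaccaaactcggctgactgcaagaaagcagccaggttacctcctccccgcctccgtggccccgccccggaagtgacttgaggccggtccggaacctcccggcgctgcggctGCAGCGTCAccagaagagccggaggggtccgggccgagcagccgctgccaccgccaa
Psmb8: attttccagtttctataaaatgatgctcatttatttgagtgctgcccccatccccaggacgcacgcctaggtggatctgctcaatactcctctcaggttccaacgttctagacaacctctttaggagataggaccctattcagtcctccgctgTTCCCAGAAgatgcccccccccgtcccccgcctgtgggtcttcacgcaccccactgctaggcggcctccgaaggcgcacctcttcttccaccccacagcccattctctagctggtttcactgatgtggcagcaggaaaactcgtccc
Psme1: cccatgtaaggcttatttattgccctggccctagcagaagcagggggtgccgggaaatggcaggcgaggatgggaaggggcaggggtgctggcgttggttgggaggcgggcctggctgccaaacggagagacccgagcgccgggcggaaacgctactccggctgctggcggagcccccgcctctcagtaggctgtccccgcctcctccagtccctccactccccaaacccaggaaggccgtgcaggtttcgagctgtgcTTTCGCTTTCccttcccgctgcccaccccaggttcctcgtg

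The constitutive proteasome genes went up and down together over the 9 arrays, and the pattern did not follow the groups. LIF replicate 1 and NO donor replicate 1 were the 2 lowest arrays for 31 of the 41 genes. These 31 included all 7 alpha ring genes, all 9 base genes and all 3 chaperones, 5 of 7 beta ring genes and 5 of 8 lid genes, but neither Psme3 nor Psme4. No LIF replicate 1 and NO donor replicate 3 were the 2 highest arrays for 19 of the 41, among them 6 of 7 alpha ring genes and 1 of 7 beta ring genes. Arrays of different groups were thus paired at each end of the range. The array pairs were picked after the values were seen, so no test goes with these counts. Over all 29811 tested probe sets the first pair was lowest for 11.9% and the second pair highest for 15.2%. Among the brightest 10% of probe sets these shares were 37.2% and 26.4%, against 75.6% and 46.3% of the proteasome genes.

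Averaged over the 36 constitutive genes (rings, base, lid, chaperones, Psme3 and Psme4) and centred on the 9 arrays, the log2 level was -0.76, 0.15 and 0.15 with LIF. It was 0.49, 0.20 and 0.16 without LIF and -0.70, -0.13 and 0.44 with the donor, in replicates 1 to 3. The no LIF arrays lay closest together, and the other groups each held 1 array far below the rest. The brighter arrays were the 3 lowest, with mean log2 levels of 9.20 to 9.83 against 10.11 to 10.45 on the other 6. The part of array brightness in this pattern was not tested in itself, and fits with brightness as a block are given beside each comparison. The same mean over the brightest 10% of probe sets ranged over 0.46 between its lowest and highest array, against 1.25 for the constitutive genes, 1.75 for the alpha ring, 1.11 for the beta ring, 1.42 for the base and 1.20 for the lid. Between pairs of genes the median correlation over the 9 arrays was 0.87 within the alpha ring, 0.80 within the beta ring, 0.79 within the base and 0.47 within the lid. Over all 630 pairs of constitutive genes it was 0.76, against 0.18 for the brightest 10% of probe sets. These genes share the same 9 arrays, so the correlations are a description.

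**Figure D1:**
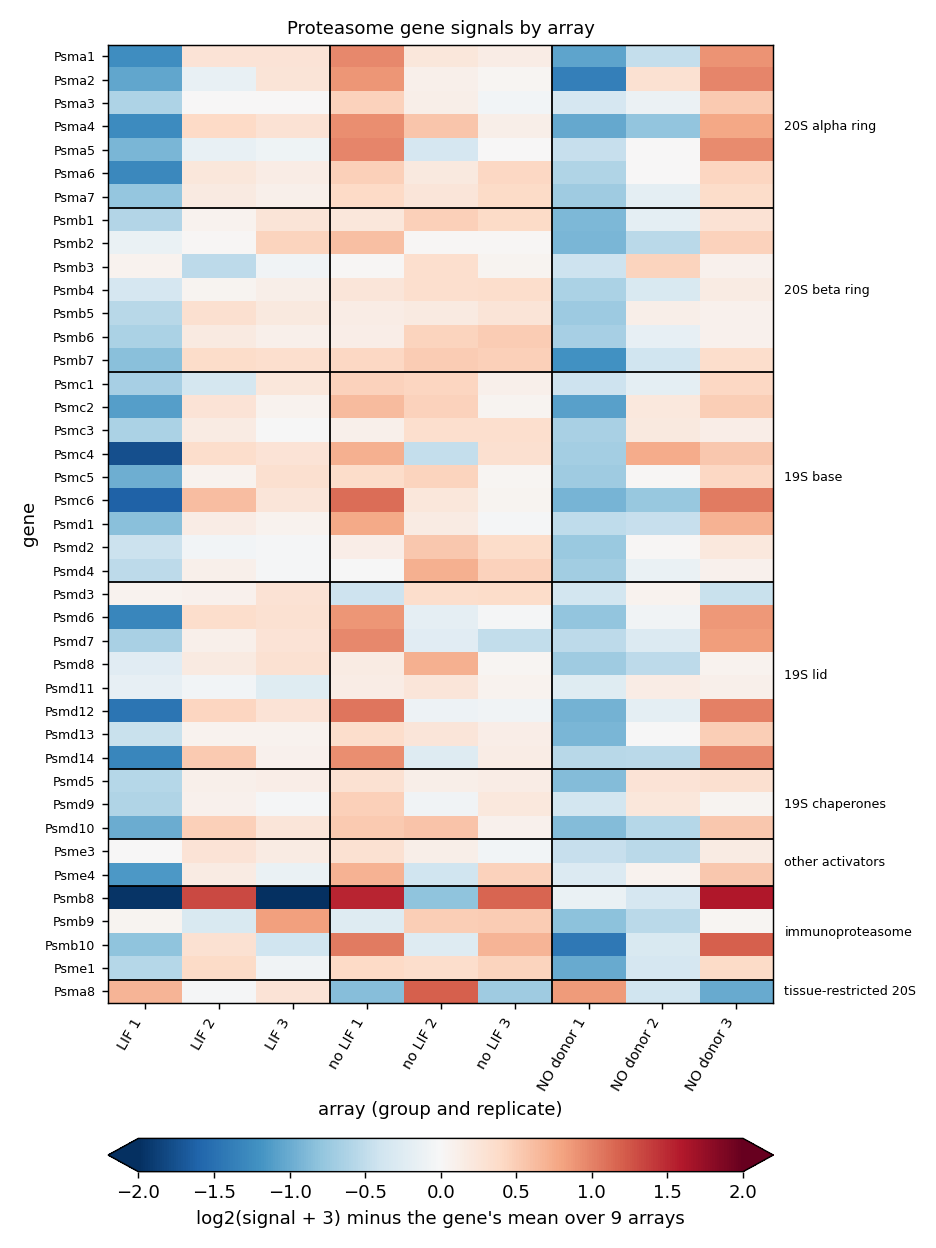
Each row is 1 of the 41 tested proteasome genes, ordered by class, and each column 1 array; colour gives log2(signal + 3) minus the gene's mean over the 9 arrays, with values beyond 2 in either direction drawn in the end colours. The columns of LIF replicate 1 and NO donor replicate 1 are blue for most genes and those of no LIF replicate 1 and NO donor replicate 3 red, whereas Psma8, Psmb9 and Psmd3 break the pattern.

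The alpha ring gates the entry to the core. Among the classes averaged over several genes its mean log2 level had the widest range, 1.75. For single genes of the ring the highest array exceeded the lowest from 2.20-fold in Psma3 to 5.10-fold in Psma2. Some genes of other classes ranged wider, such as Psmc6 at 6.74-fold. Psma6, the alpha ring gene with the highest mean signal, read 1029, 2955 and 2805 with LIF, 3539, 2892 and 3381 without LIF, and 1664, 2542 and 3408 with the donor. Both ends of its range lay in replicate 1, at the LIF and no LIF arrays, and the groups overlapped. Psma1, with the lowest mean signal of the ring, read 446, 1277 and 1271 with LIF, 2061, 1235 and 1164 without LIF, and 504, 754 and 1973 with the donor. Its lowest 2 arrays were LIF and NO donor replicate 1 and its highest 2 the alike pair, and the groups again overlapped. Group means of Psma1 were 998 ± 478 with LIF, 1487 ± 499 without it and 1077 ± 786 with the donor (SD, n = 3). Psma7 was the exception in 1 respect: its no LIF signals of 1582, 1423 and 1571 all lay above the LIF signals of 704, 1368 and 1287.

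The beta ring holds the peptidase sites. Psmb5, the chymotrypsin-like subunit, read 1025, 1880 and 1733 with LIF, 1675, 1711 and 1806 without LIF, and 913, 1639 and 1605 with the donor. The 3 donor values lay under all 3 no LIF values, by a small margin in replicates 2 and 3. Psmb6, the caspase-like subunit, read 1161, 2025 and 1924 with LIF, 1960, 2442 and 2542 without LIF, and 1135, 1605 and 1909 with the donor. It had the donor values under the no LIF values as well, while the LIF values overlapped both. Psmb7, the trypsin-like subunit and the brightest of the ring, read 1588, 3671 and 3567 with LIF, 3779, 4023 and 3963 without LIF, and 1230, 2146 and 3633 with the donor. No LIF was highest on all 3 arrays, above every LIF and every donor array. Group means of Psmb7 were 2942 ± 1174 with LIF, 3922 ± 128 without LIF and 2336 ± 1213 with the donor (SD, n = 3). Psmb4, a beta subunit without peptidase activity, had the same order, at 2333, 3074 and 3195 with LIF, 3472, 3735 and 3758 without LIF, and 1906, 2391 and 3295 with the donor. In the other probe set of Psmb4 the donor and no LIF values overlapped. Psmb2, the dimmest of the ring, read 363, 407 and 548 with LIF, 606, 406 and 408 without LIF, and 212, 274 and 554 with the donor, and its highest arrays were the alike pair. Psmb3 was unlike the rest of the ring: its lowest array was LIF replicate 2, at 1098, and its highest NO donor replicate 2, at 2168.

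In the base of the cap, the ATPases drive unfolding. Psmc2, the brightest of this class, read 865, 2266 and 1970 with LIF, 2894, 2571 and 1937 without LIF, and 874, 2153 and 2639 with the donor. LIF replicate 1 and NO donor replicate 1 stood far below the other 7 arrays, which overlapped across groups. Psmc1, the dimmest, read 401, 500 and 740 with LIF, 876, 857 and 684 without LIF, and 474, 552 and 847 with the donor. Psmc4 and Psmc6 had the widest ranges of the class, 5.65-fold and 6.74-fold between the highest and the lowest array. The other probe set of Psmc4 had a narrower range, from 588 to 1200. Psmd2, a scaffold subunit that binds shuttle factors, read 963, 1249 and 1275 with LIF, 1424, 1881 and 1674 without LIF, and 777, 1320 and 1501 with the donor, and its 3 no LIF values lay above its 3 LIF values. The ubiquitin receptor Psmd4 read 907, 1397 and 1288 with LIF, 1294, 2143 and 1791 without LIF, and 805, 1194 and 1385 with the donor, with 1 LIF array just above the lowest no LIF array.

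The lid completes the cap. Psmd11, a scaffold subunit known to raise proteasome assembly in pluripotent cells, read 1952, 2102 and 1861 with LIF, 2441, 2599 and 2297 without LIF, and 1850, 2443 and 2349 with the donor, and the highest array exceeded the lowest by a smaller fold than in any other of the 41 genes. Its no LIF values all lay above its LIF values. Both are read from the chosen probe set of Psmd11. A further probe set ran from 533 to 1090, and its no LIF and LIF values overlapped. Another ran from 561 to 1140, with its no LIF values above its LIF values. The rest of those tested gave log2 differences without LIF of -0.31 (SE 0.36) and 0.22 (SE 0.46). Psmd7, the dimmest of the lid and the catalytically inactive partner of Psmd14, read 300, 507 and 569 with LIF, 921, 404 and 335 without LIF, and 326, 390 and 846 with the donor, with the alike pair above all other arrays. The deubiquitinase Psmd14 ranged 4.84-fold and Psmd12 5.82-fold. Psmd8 read 801, 1058 and 1152 with LIF, 1050, 1539 and 966 without LIF, and 570, 652 and 978 with the donor, with 2 donor arrays below every other array. Psmd3 ran the other way: at 698, 705 and 809 with LIF, 498, 847 and 861 without LIF, and 514, 695 and 484 with the donor, its lowest arrays were the alike pair, which was highest for most other lid genes. Its donor values all lay below its LIF values.

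Of the chaperones that assemble the base, Psmd5 read 294, 469 and 477 with LIF, 539, 474 and 483 without LIF, and 238, 527 and 546 with the donor. The replicate 1 arrays of LIF and donor were low, and the other 7 arrays lay between 469 and 546. Psmd9 was dimmer, at 71.8, 117 and 108 with LIF, 155, 105 and 128 without LIF, and 84.5, 130 and 114 with the donor. Its LIF and no LIF groups overlapped. Psmd10 ranged 3.05-fold.

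Psme3 and Psme4 encode the nuclear activators PA28 gamma and PA200. Psme3 read 199, 239 and 221 with LIF, 245, 214 and 189 without LIF, and 141, 134 and 222 with the donor. It had no array pattern of the core genes: NO donor replicates 1 and 2 were low, and the other 7 arrays lay between 189 and 245. Psme4 read 625, 1555 and 1268 with LIF, 2250, 1055 and 1904 without LIF, and 1150, 1448 and 2015 with the donor, lowest in LIF replicate 1 and highest in the alike pair.

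The immunoproteasome genes varied less evenly, with a median correlation of 0.52 between their 6 pairs. Psmb8, the counterpart of Psmb5, read 1.67, 42 and 0.474 with LIF, 48.8, 7.38 and 37.5 without LIF, and 13.6, 11.3 and 51.9 with the donor. It lay below its array's median on 5 of 9 arrays, with no order by group, and its log2 differences rest on values near the noise. Psmb9, the counterpart of Psmb6, read 54.1, 41.9 and 95 with LIF, 43.4, 74.4 and 75.3 without LIF, and 28.2, 35.1 and 53.6 with the donor. It did not share the array pattern, since LIF replicate 3 was its highest array and NO donor replicates 1 and 2 its lowest. Psmb10, the counterpart of Psmb7, read 62.9, 138 and 83.9 with LIF, 233, 93.2 and 181 without LIF, and 39.5, 89.8 and 261 with the donor, a 6.61-fold range with the alike pair highest and NO donor replicate 1 lowest. The PA28 subunit Psme1 read 394, 772 and 560 with LIF, 776, 749 and 803 without LIF, and 292, 467 and 770 with the donor. Group means of Psme1 were 575 ± 189 with LIF, 776 ± 26.9 without it and 510 ± 242 with the donor (SD, n = 3). Psme2, its partner, is matched only by a probe set that also names Psme2b, so it is no member by the rule and its signal cannot be assigned to 1 gene. That probe set read 178, 527 and 322 with LIF, 970, 313 and 520 without LIF and 152, 256 and 984 with the donor.

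Markers of blood and immune cells, which use the immunoproteasome, were read beside these genes. Their summed signal over 6 genes was 704 to 2140 with LIF, 202 to 2100 without it and 193 to 1430 with the donor. The sum was lowest, at 202 and 193, on no LIF replicate 1 and NO donor replicate 3, where Psmb10 was highest. Laptm5, with a mean of 1010, made up most of the sum on every array but these 2. The markers did not move as a set. Laptm5, at 77.7 and 64.4, and Cd74, at 20.4 and 17.5, were lowest there, and Coro1a, at 101 and 90.8, was highest. Tyrobp read 1.34 and 10.8 there. The defining marker Ptprc had a mean signal of 2.72 and Cd52 one of 5.26, both under the filter. Endoderm markers, summed over 7 genes, were also lowest on the alike pair, at 2120 and 2080, against up to 12700 on LIF replicate 3. Fibroblast markers, of which 4 of 6 passed the filter, summed to 71.6 to 366, and trophoblast markers to 204 to 1170. Between groups, pluripotency markers had a median log2 difference of 0.18 without LIF, with 4 of 6 above 0. With the donor all 6 lay below 0, at a median of -0.63 against no LIF and of -0.32 against LIF. Trophoblast markers had medians of -1.03 without LIF, with 4 of 5 below 0, of 0.65 with the donor against no LIF, with 5 of 5 above 0, and of -0.38 against LIF, with 4 of 5 below. Endoderm markers gave -0.80, with 7 of 7 below 0, then 0.13, with 4 of 7 above, and -0.77, with 7 of 7 below. The 4 tested blood and immune markers gave -0.13, -0.23 and -0.03 in the same order, and the 4 fibroblast markers -0.11, -0.16 and -0.27. None of these markers passed limma's test, and the part of other cell types in the proteasome signals was not tested.

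**Figure D2:**
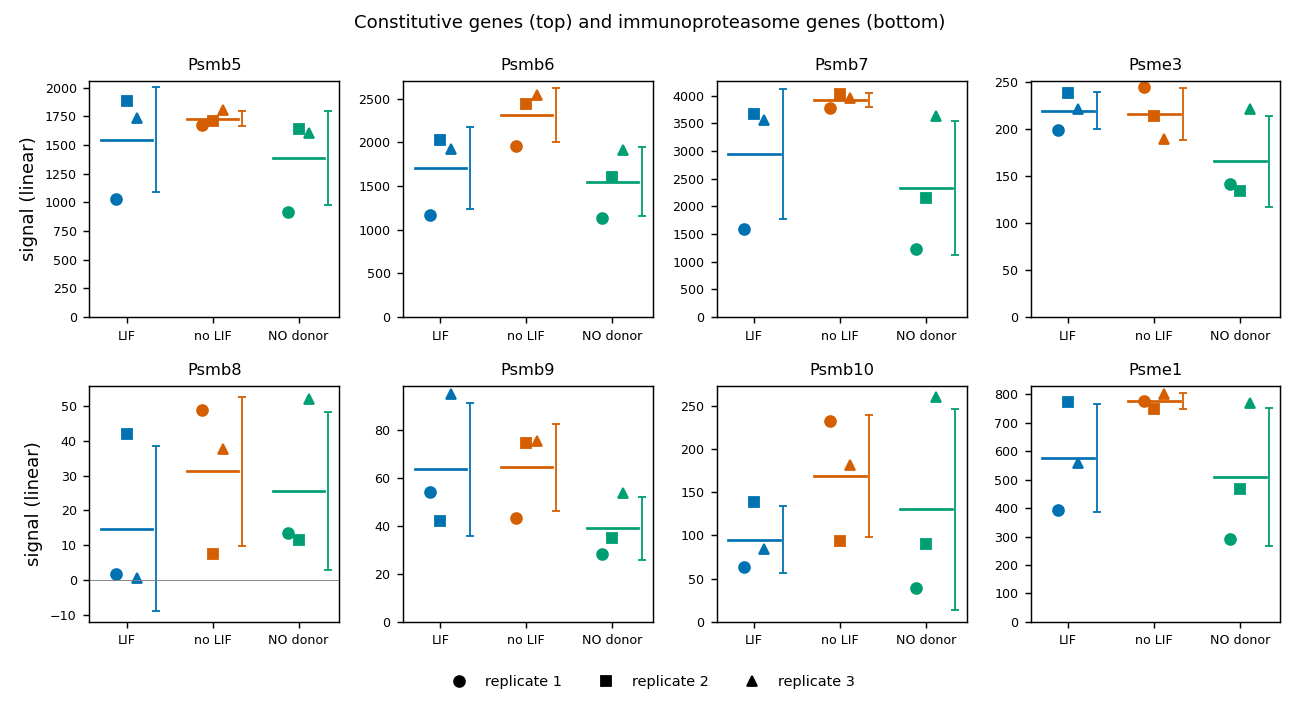
Linear signals of the constitutive genes Psmb5, Psmb6, Psmb7 and Psme3 (top row) and of the immunoproteasome genes Psmb8, Psmb9, Psmb10 and Psme1 (bottom row) in the 3 groups; symbols are replicates 1 to 3, horizontal lines group means and error bars SD (n = 3), each panel with its own axis. The donor symbols of Psmb5, Psmb6 and Psmb7 lie below all no LIF symbols, while those of Psmb10 reach from below to above all symbols of the other groups and those of Psmb8 overlap both groups.

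The tissue-restricted core genes are those of testis (Psma8) and thymus (Psmb11). Psma8 read 79.1, 47.2 and 59.1 with LIF, 25.3, 114 and 28.4 without LIF, and 89.5, 36 and 22.5 with the donor, without a group order and with 2 arrays of the alike pair among its 3 lowest. Psmb11 was not tested, with signals from 0.461 to 15.3. The 2 genes that match by name only had ordinary signals: Psmc3ip, a meiotic recombination factor, ranged from 77.8 to 243 and Psme3ip1, a protein that binds Psme3, from 192 to 392.

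The first comparison asks how proteasome genes stand after 7 days without LIF. Most had higher mean log2 signals without LIF, but none passed the test. The median log2 difference (no LIF minus LIF) over the 41 genes was 0.48, and 38 of 41 lay above 0, against 42.7% of all tested probe sets, whose median was -0.10. Of the brightest 10% of probe sets, 69.6% lay above 0, with a median of 0.25. By class the median was 0.66 in the alpha ring, 0.36 in the beta ring, 0.53 in the base, 0.32 in the lid, 0.38 in the chaperones and 0.64 in the 4 immunoproteasome genes. In these classes every gene lay above 0 except Psmd3 in the lid. The other 2 genes below 0 were Psme3 and Psma8.

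In limma's fit over all 9 arrays, 0 of the 29811 probe sets passed an adjusted p of 0.05 (percent called 0), the smallest adjusted p being 0.973. At an unadjusted p under 0.05 there were 459 probe sets (1.54%) and 0 of the 41 genes. The smallest unadjusted p values among the genes were those of Psmc1, with a log2 difference of 0.59 (SE 0.35), Psmb8, with 1.63 (SE 0.99), and Psmd2, with 0.51 (SE 0.32). They were 0.119, 0.127 and 0.134 before and 0.973 for each after limma's adjustment. Psmc1 and Psmb8 were higher without LIF in 2 of 3 passages and Psmd2 in 3 of 3. The size for Psmb8 depends on the pseudocount and on single arrays: it was 2.19 with a pseudocount of 1 and 0.75 with 16, and ran from 0.95 without LIF replicate 3 to 2.79 without LIF replicate 2. It was 3.51 (unadjusted p = 0.000773, limma adjusted p = 0.526) without both replicate 2 arrays, whose Socs3 signals go against their labels. These arrays hold the highest LIF signal of Psmb8, 42, and its lowest no LIF signal, 7.38. Leaving them out keeps 2 arrays in each of these groups, with LIF signals of 1.67 and 0.474, near the noise. The 3 no LIF values lay above all 3 LIF values for 6 of 41 genes, against 2.88% of all tested probe sets and 9.73% of the brightest 10%. These were Psma7, Psmb4, Psmb7, Psmd2, Psmd11 and Psmd13, spread over both rings, base and lid. Their log2 differences were 0.50 (SE 0.36), 0.36 (SE 0.27), 0.51 (SE 0.43), 0.51 (SE 0.32), 0.31 (SE 0.24) and 0.34 (SE 0.39), in that order. A further probe set of Psmd13 overlapped, at 337, 364 and 274 without LIF and 185, 243 and 295 with LIF. It gave 0.44 (SE 0.37), and the other tested probe sets of Psmd13 gave -0.94 (SE 1.06) and -0.04 (SE 0.61).

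For the constitutive subunits and their immunoproteasome counterparts, log2 differences without LIF were 0.21 (SE 0.34) for Psmb5 and 1.63 (SE 0.99) for Psmb8, 0.47 (SE 0.32) for Psmb6 and 0.05 (SE 0.44) for Psmb9, and 0.51 (SE 0.43) for Psmb7 and 0.79 (SE 0.64) for Psmb10. The activators gave 0.48 (SE 0.40) for Psme1, 0.62 (SE 0.42) for Psme4 and -0.03 (SE 0.34) for Psme3, the last above 0, at 0.04 and 0.19, under quantile normalization and median centring. All had limma adjusted p values of at least 0.973. The shared Psme2 and Psme2b probe set gave 0.79 (SE 0.69). Differences between the members of a pair were not tested. The median of 0.48 rests largely on LIF replicate 1, without which it was 0.18, with 11 of 41 genes below 0. With array brightness as a block it was 0.15, and over the 6 arrays that are not brighter 0.18.

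The second comparison asks how the donor changes cells without LIF. It shares the no LIF arrays with the first, so the 2 sets of differences are not independent. The median log2 difference (NO donor minus no LIF) was -0.39 over the 41 genes, and 40 of 41 lay below 0, with Psmc4 as the exception. Psmc4 gave 0.01 (SE 0.59) with its chosen probe set and -0.27 (SE 0.33) with its other one. The pluripotency markers (median -0.63) lay below 0 and the trophoblast markers (median 0.65) above 0 in the same comparison. Medians were 0.13 for the endoderm, -0.16 for the fibroblast and -0.23 for the blood and immune markers. No marker passed limma's test. Of all tested probe sets 44.0% lay below 0, with a median of 0.08, and of the brightest 10%, 73.8%, with a median of -0.25. The median was -0.42 in the alpha ring, -0.57 in the beta ring, -0.40 in the base, -0.33 in the lid, -0.28 in the chaperones and -0.68 in the 4 immunoproteasome genes. None of these genes passed the test.

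Again 0 probe sets passed limma's adjusted p of 0.05 (percent called 0), with a smallest value of 0.929. At an unadjusted p under 0.05 there were 1498 (5.02%), of which 1265 were higher with the donor, and 0 of the 41 genes. The smallest unadjusted p values among the genes were 0.059 for Psmd8, with a log2 difference of -0.70 (SE 0.33), 0.0616 for Psmb4, with -0.57 (SE 0.27), and 0.0634 for Psmb7, with -0.88 (SE 0.43). The limma adjusted p was 0.929 for each. Psmb4 and Psmb7 were lower with the donor in 3 of 3 passages and Psmd8 in 2 of 3. The 3 donor values lay below all 3 no LIF values for 4 of 41 genes, against 2.52% of all tested probe sets and 6.77% of the brightest 10%. All 4 belong to the beta ring: Psmb4, Psmb5, Psmb6 and Psmb7, so that each constitutive peptidase gene was among them. The other probe set of Psmb4 overlapped, at 1980, 3260 and 2950 with the donor and 3370, 3590 and 3000 without LIF. Its log2 difference was -0.31 (SE 0.26). Psmb5 gave -0.37 (SE 0.34) and Psmb6 -0.60 (SE 0.32), both lower in 3 of 3 passages, with limma adjusted p values of 0.933 and 0.929. With array brightness as a block Psmb5 stood at 0.03.

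For the immunoproteasome the log2 differences with the donor were -0.25 (SE 0.99) in Psmb8, -0.69 (SE 0.44) in Psmb9, -0.67 (SE 0.64) in Psmb10 and -0.71 (SE 0.40) in Psme1. Psmb9 and Psme1 were lower in 3 of 3 passages, with limma adjusted p values of 0.929 for both. Psmb10 ran from -1.36 without NO donor replicate 3 to -0.04 without NO donor replicate 1, and Psmb8 from -0.96 without no LIF replicate 2 to 0.20 without no LIF replicate 1. With array brightness as a block Psmb10 stood at 0.27 and Psmb8 at 0.84, and over the 6 arrays that are not brighter at 0.71 and 0.97. The other activators gave -0.41 (SE 0.34) for Psme3 and -0.14 (SE 0.42) for Psme4, which stood at 0.05 under quantile normalization. The scaffold Psmd11 gave -0.15 (SE 0.24), and 0.09 under quantile normalization. With array brightness as a block the median was 0.11, with 16 of 41 genes below 0, and over the 6 arrays that are not brighter, which leave 1 donor array, 0.12. It was -0.15 without NO donor replicate 1 and -0.77 without NO donor replicate 3 and -0.59 without the alike pair. Without NO donor replicate 3, 11 of the 41 genes (26.8%) had an unadjusted p under 0.05 in limma's fit, against 14.4% of all tested probe sets and 20.7% of the brightest 10%, and 0 probe sets were called. In that setting every donor array left is a brighter array and no no LIF array is, so donor and brightness cannot be told apart.

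The third comparison sets the donor against LIF, and shares its arrays with both others. The 41 genes were centred near 0: the median log2 difference (NO donor minus LIF) was 0.04, with 24 above and 17 below 0, against 47.8% of all tested probe sets below 0 and a median of 0.02. The median was 0.22 in the alpha ring, where 5 of 7 lay above 0, and -0.19 in the beta ring, where 6 of 7 lay below. In the base it was 0.10, in the lid 0.13, in the chaperones 0.02 and in the immunoproteasome genes -0.06. The difference between the rings was not tested. In limma's fit 0 probe sets were called (percent called 0), the smallest adjusted p being 1, and 578 (1.94%) and 0 of the 41 genes had an unadjusted p under 0.05. Psmb9 had a log2 difference of -0.63 (SE 0.44) and an unadjusted p of 0.176, Psmd8 one of -0.47 (SE 0.33) and 0.181, and Psmb8 one of 1.39 (SE 0.99) and 0.188. Psmb9 and Psmd8 were lower with the donor in 3 of 3 passages. Psmb10 gave 0.12 (SE 0.64) and Psme1 -0.23 (SE 0.40). Psmd3 alone had donor values wholly below its LIF values, 1 of 41 against 3.19% of all tested probe sets. The median was -0.31 without LIF replicate 1 and 0.32 without NO donor replicate 1, so its sign depends on which of the 2 low arrays is kept.

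Differences within each labelled passage were unequal. Without LIF, the median over the 41 genes was 1.12 in passage 31, with 37 above 0, but 0.09 and 0.06 in passages 33 and 34, with 24 and 23 above 0. With the donor against no LIF it was -1.13 in passage 31, with 39 below 0, -0.29 in passage 33, with 32 below, and 0.21 in passage 34, with 27 above. The alpha ring turned from below to above 0, at -1.44, -0.25 and 0.66, and the immunoproteasome genes began lower, at -1.52 in passage 31. The beta ring stayed below 0, at -0.87, -0.60 and -0.13. Psmb7 gave -1.62, -0.91 and -0.13 and Psma5 -1.44, 0.34 and 0.93. With the donor against LIF the medians were 0.01, -0.27 and 0.27. In the brightest 10% of probe sets the donor medians against no LIF were -0.53, -0.21 and -0.10. Passage 31 holds 2 of the 3 brighter arrays, and the alike pair lies in passages 31 and 34.

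**Figure D3:**
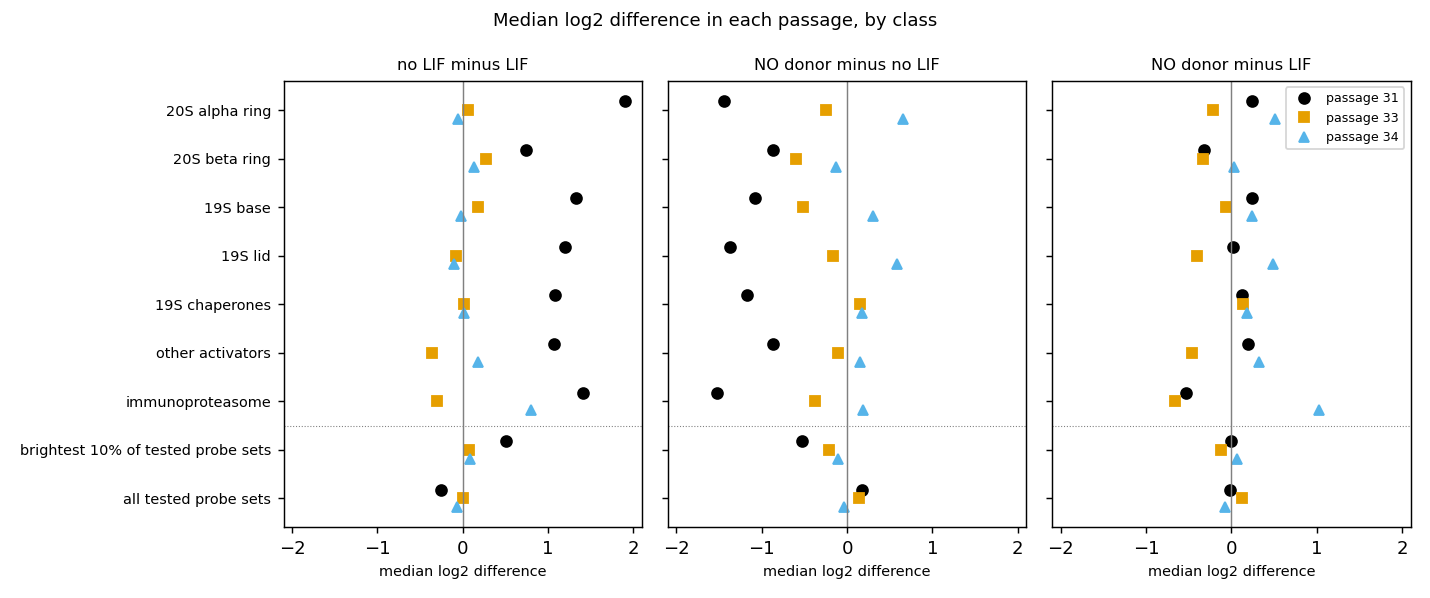
Median log2 difference by class in each labelled passage (circles passage 31, squares passage 33, triangles passage 34), for the 3 comparisons, with the brightest 10% and all tested probe sets below the dotted line. For no LIF minus LIF the circles stand apart, at 1.90 in the alpha ring, and for NO donor minus no LIF the alpha ring runs from -1.44 to 0.66 while the beta ring stays at or below -0.13.

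Genes that build, regulate or feed the proteasome were read from lists. Of 23 listed symbols for assembly factors and regulators 18 were tested, and 16 of them lay above 0 without LIF (median 0.21) and 14 below 0 with the donor against no LIF (median -0.28). None passed limma's test. The maturation factor Pomp gave a log2 difference of 0.90 (SE 0.53) without LIF and Nfe2l1, the transcription factor of proteasome genes, -0.76 (SE 0.51), both with adjusted p = 0.973. Nfe2l1 read 512, 541 and 610 with LIF, 153, 413 and 543 without LIF, and 374, 167 and 158 with the donor. Its difference without LIF rests largely on no LIF replicate 1, without which it was -0.22, as it was without the alike pair, and it ran to -1.13 without no LIF replicate 3. Against LIF the donor difference of Nfe2l1 was -1.35 (SE 0.51), with an unadjusted p of 0.0223 and a limma adjusted p of 1. The unadjusted p in limma's fit was 0.0753 without NO donor replicate 2, 0.0672 without NO donor replicate 3 and 0.0626 without LIF replicate 3. Nfe2l1 was the 1 gene of the 18 tested in this list at an unadjusted p under 0.05 in that comparison, against 1.94% of all tested probe sets. The chaperone Psmg4 gave -0.61 (SE 0.33) and the inhibitor Psmf1 -0.49 (SE 0.38) with the donor against no LIF, and Psmg4 -0.51 (SE 0.33) against LIF.

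Of 16 listed genes that supply ubiquitin or shuttle substrates 9 were tested. Without LIF 8 of 9 lay above 0 (median 0.37), and with the donor against no LIF 7 of 9 below 0 (median -0.47). The shuttle factor Ubqln1 gave 0.66 (SE 0.40) and the segregase Vcp 0.35 (SE 0.27) without LIF. The ubiquitin-activating enzyme Uba6 went against the list, with 0.66 (SE 0.34) with the donor against no LIF, and the Vcp cofactor Nploc4 gave -0.66 (SE 0.36). Against LIF Ubqln2 gave 0.60 (SE 0.31) and Nploc4 -0.41 (SE 0.36). Of 14 listed genes of antigen processing and the interferon response 10 were tested, with 5 above 0 without LIF (median -0.06), 8 below 0 with the donor against no LIF (median -0.18) and 7 below 0 against LIF (median -0.37). The peptide transporter gene Tap2 gave 0.53 (SE 0.42) and the class I gene H2-D1 -0.42 (SE 0.38) without LIF. With the donor against no LIF the peptide-loading factor Tapbp gave -0.48 (SE 0.43) and H2-K1 -0.32 (SE 0.33). Against LIF Tapbp gave -0.63 (SE 0.43) and Stat2 -0.51 (SE 0.38). Limma's adjusted p was at least 0.929 for every gene of these lists.

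Probe sets of 1 gene did not always run the same way. For 19 of the 41 genes 37 further probe sets were tested, and 15 of these, of 11 genes, had a negative correlation with the chosen probe set over the 9 arrays, the lowest being -0.87 in Psmc2. Their mean signals were 10.3 to 383. For 10 of the 15, LIF replicate 1 and NO donor replicate 1 were the 2 highest arrays, the pair that was lowest for most chosen probe sets. Psma1, Psma3, Psma5, Psmd7, Psmd13 and Psme4 each had such a probe set with r of -0.74 or below. The sign of the difference was opposite to that of the chosen probe set for 15 of 37 without LIF, for 20 of 37 with the donor against no LIF and for 10 of 37 against LIF. What sequence each of these probe sets reads was not examined, and which of 2 opposed probe sets reports the gene was not tested.

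**Figure D4:**
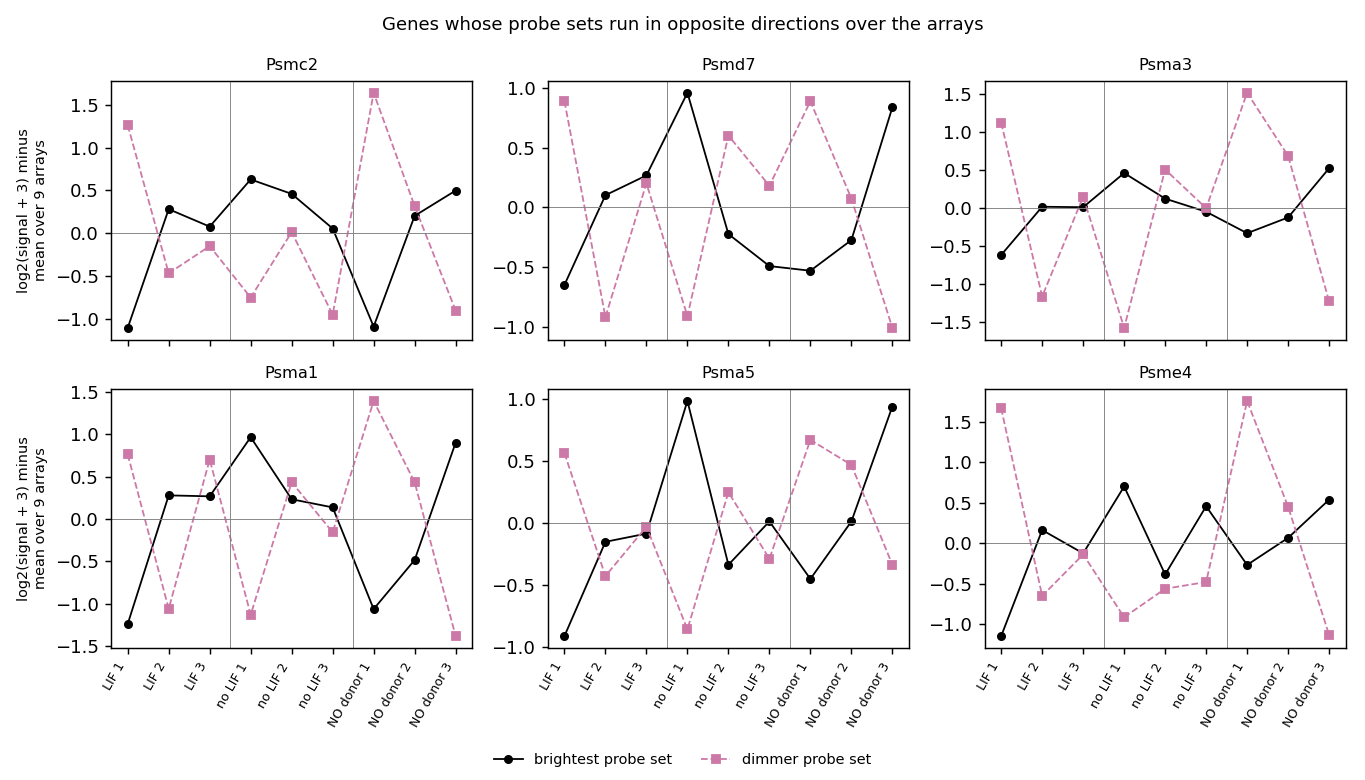
Log2(signal + 3) minus its mean over the 9 arrays for the brightest probe set (black circles) and the probe set most opposed to it (pink squares) in 6 genes; groups are parted by vertical lines. In Psmc2, where r is -0.87, the black points are lowest and the pink ones highest at LIF replicate 1 and NO donor replicate 1.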

How the data were processed

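Total RNA of 9 cultures of D3-pOct4 mouse embryonic stem cells was measured on 1 array each. The deposited intensities are linear signals that the authors made in GeneChip Operating System v1.4.0.036 with global scaling, per the labels' series design text; per the submitters' processing notes the tool was MAS5. Every array has a 2 percent trimmed mean of 100. Global scaling sets that mean equal and not the shape of the distribution, so arrays can still differ in median. Detection calls were not used here.

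Values were turned to log2(signal + 3), on which scale differences understate the change of dim probe sets. Of 45101 probe sets, the 64 controls were left out and 29811, of 13376 genes, were tested: those at or above the 40th percentile of their array on at least 3 of 9 arrays. A single limma model (version 3.58.1, R 4.3.3; eBayes after lmFit, variance allowed to vary with intensity) of the 9 arrays, with group as its one factor, gave all 3 comparisons as two-sided tests. Benjamini-Hochberg adjustment ran over the 29811 probe sets, at a threshold of 0.05. The fit was also run on simulated data, with noise drawn independently for each probe set. Those data lack the pattern that genes share over these arrays, so the run does not check the fit under it. Symbols came from the platform annotation, which gives 34945 probe sets 1 symbol, 932 several and 9160 none; none was named from several.

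The genes and lists were chosen with earlier results of these data known. Values on every array are given for the immunoproteasome genes, Psmb5, Psmb6, Psmb7, Psme3 and Psme4, the brightest and dimmest gene of each class and the 3 genes of smallest p in each comparison. In each other list the 2 of smallest p in a comparison are named with their differences. Psmb3, Psma7, Psmc4, Psmc6, Psmd3, Psmd4, Psmd12, Psmd14, Psma8 and Psma5 were named after their values were seen. Alternatives changed the pseudocount, the filter, the scaling, the variance trend, the probe set of a gene, blocks and the arrays in the fit.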

Additional observations from a re-analysis of the deposited data

How the results depend on the processing

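No probe set was called in any of the 3 comparisons under any alternative. The median over the proteasome genes stayed above 0 without LIF, at 0.15 to 0.70, the lower end with array brightness as a block and the upper under median centring, which moved the median of all tested probe sets from -0.10 to 0.12. Leaving out 1 array in turn gave 0.18 (without LIF replicate 1) to 0.62 (without LIF replicate 2). With the donor against no LIF it was -0.62 under median centring (all probe sets -0.15), -0.32 under quantile normalization, 0.11 with the brightness block and 0.12 over the 6 arrays that are not brighter, and -0.77 (without NO donor replicate 3) to -0.15 (without NO donor replicate 1) when 1 array was left out. The donor against LIF gave -0.29 without the alike pair, 0.27 with the brightness block, and -0.31 (without LIF replicate 1) to 0.32 (without NO donor replicate 1) with 1 array left out. Without both replicate 2 arrays of LIF and no LIF the 3 medians were 0.58, -0.47 and 0.15. The cause of these shifts and of the changes of sign below was not tested.

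The passage numbers did not show a pairing. Deviations of same-numbered arrays from their group means correlated from -0.45 to 0.65 in passage 31, -0.60 to 0.20 in passage 33 and -0.33 to 0.16 in passage 34. With the passage as a replicate block the medians stayed 0.48, -0.39 and 0.04, 0 probe sets were called, and 0, 4 and 0 of the 41 genes had an unadjusted p under 0.05 in limma's fit, of 493, 1602 and 471 probe sets.

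Of the recomputed differences of single genes 83 changed sign and 1511 kept their sign and their side of the threshold. For no LIF against LIF these were Psme3 (0.04 under quantile normalization, 0.19 under median centring, 0.04 without both replicate 2 arrays, 0.10 for the mean over probe sets, 0.22 for the next brightest probe set), Psmb9 (-0.10 with the brightness block, -0.02 over the 6 arrays, -0.31 without both replicate 2 arrays), Psmb2 (-0.16, -0.02 and, without the alike pair, -0.09), Psmd7 (-0.17, -0.10 and -0.26 likewise, -0.23 for the mean and -0.10 for the next probe set) and Psmb5 (-0.06 over the 6 arrays). The mean over probe sets gave -0.26 for Psme4, -0.10 for Psma6, -0.13 for Vcp and -0.05 for Psmd13, and the next probe set -0.42 for Psma1 and -0.61 for Vcp. With 1 array left out the ranges were -0.12 to 0.06 for Psme3, -0.19 to 0.37 for Psmb9, -0.09 to 0.27 for Psmb2, -0.26 to 0.46 for Psmd7 and -0.06 to 0.38 for Psmb5.

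For the donor against no LIF, quantile normalization gave 0.05 for Psme4 and 0.09 for Psmd11. The brightness block gave 0.84 for Psmb8, 0.27 for Psmb10, 0.03 for Psmb5, 0.46 for Psme4, 0.32 for Psma6, 0.40 for Psma1, 0.23 for Psmc2, 0.04 for Psmc1, 0.62 for Psmd7, 0.15 for Psmd5 and 0.02 for Psmd9. The 6 arrays that are not brighter gave 0.97 for Psmb8, 0.71 for Psmb10, 0.04 for Psme3, 0.28 for Psme4, 0.06 for Psma6, 0.46 for Psma1, 0.25 for Psmb2, 0.12 for Psmc2, 0.08 for Psmc1, 0.75 for Psmd7 and 0.13 for Psmd5. The mean over probe sets gave 0.70 for Psme4, 0.21 for Psmd7 and 0.17 for Psmd9, and the next probe set 0.43 for Psma1, 0.03 for Psmd7 and 0.82 for Psmd9. With 1 array left out the ranges were -0.47 to 0.08 for Psme4, -0.96 to 0.20 for Psmb8, -0.48 to 0.37 for Psmd7 and -0.49 to 0.11 for Psmd5. For the donor against LIF, Psme1 stood at 0.07 with the brightness block, 0.23 over the 6 arrays and 0.01 without both replicate 2 arrays, and Psmb10 at -0.57 without the alike pair. Ranges of these 2 with 1 array left out were -0.58 to 0.11 and -0.57 to 0.75. The next probe set of Stat2 gave 0.15. For no LIF against LIF and for the donor against no LIF, Psmb4, Psmb6, Psmb7, Psmd2 and Psmd8 kept their sign in every alternative run. Psmd8 fell to 0.02 without LIF when no LIF replicate 2 was left out. For the donor against LIF, Psmd8 alone of these genes was recomputed, and it kept its sign.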

Other observations

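Among the 37 further probe sets of proteasome genes, 3 had an unadjusted p under 0.05 in limma's fit in some comparison: 1 without LIF (2.70%, against 1.54% of all tested probe sets), 2 with the donor against no LIF (5.41%, against 5.02%) and 1 against LIF (2.70%, against 1.94%). These shares are near the background, and none had an adjusted p under 0.929. They are named because of these values. The first is a dim probe set of Psme4, the activator PA200, with signals of 20.1, 5.93 and 12.6 with LIF, 4.41, 5.51 and 4.46 without LIF and 53.5, 23.2 and 11.4 with the donor. All 3 donor values lay above all 3 no LIF values, as they did for 1908 of all 29811 tested probe sets. The log2 difference between these groups was 1.84 (SE 0.56, unadjusted p = 0.00764). The brightest probe set of Psme4 gave -0.14 (SE 0.42). A further probe set of Psme4 read 195, 50.8 and 82.3 with LIF, 23.9, 57.3 and 59.8 without LIF and 255, 157 and 54.3 with the donor, where the donor and no LIF groups overlapped (log2 difference 1.51, SE 0.65). The third belongs to Psmd9 and read 3.26, 6.15 and 7.08 with LIF, 11, 20 and 17.7 without LIF and 15.7, 18.7 and 11.1 with the donor. Every array without LIF, with or without the donor, lay above every LIF array. How many of all tested probe sets have this order was not counted. The probe set was picked for its p value, and the filter can be met by the arrays without LIF alone. The order is therefore a description. The log2 differences of this probe set from LIF were 1.18 without LIF and 1.10 with the donor (SE 0.42 for both), against 0.38 (SE 0.37) and 0.15 (SE 0.37) for the brightest probe set. The LIF signals of the dim probe set lay well below the array medians of 23.3, 15 and 17.8, and its other signals near or below the medians. Psme4 and Psmd9 thus gave different values by probe set, and which of them reports the transcript was not tested.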
